A study of Mus musculus with 20 samples.

Results

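Primary mouse embryo fibroblasts (MEFs) that carry loxP-flanked alleles of Ubf (Ubf fl/fl) were compared with MEFs of the control genotype (Ubf wt/wt) for genes whose level differed between the cultures in the same direction at 0, 24, 48, 72 and 96 h, so that the difference was already there at 0 h. The fl/fl minus wt/wt difference had the same sign at all 5 times for 1715 of 14616 genes kept in MEFs, 855 higher in fl/fl (5.85%) and 860 lower (5.88%). Of these, 120 higher (0.821%) and 117 lower (0.800%) also passed a paired limma test at an adjusted p of 0.05, and these 237 are called lasting differences here. No gene passed the test with differences of mixed sign. The number depends on how the error is estimated: with limma's trend and robust settings 1 gene was lasting higher and 1 lower.

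Both cultures came from E14.5 embryos and were homozygous for Er-cre, a Cre recombinase that works only once 4-hydroxytamoxifen (4-HT) is bound, and both were exposed to 50 nM 4-HT for 4 h. The study's methods describe the wt/wt embryos as isogenetic with the fl/fl ones. Each genotype was 1 MEF culture with 1 array at each time, 10 arrays in all, and the same design was run in MEFs that had been immortalized by SV40 T antigens (iMEFs), giving 20 arrays in the series. The number of embryos behind each culture and their sex are not given in the sources used here. The labels do not say whether the 5 times of a genotype were separate dishes. Every error and p below measures the scatter of the difference between times, not between independently derived cultures. With 1 culture per genotype, an effect of genotype and a difference between the cultures cannot be told apart. Nor can an effect of Ubf loss at the later times be told apart from these.

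MEF cultures are grown from minced embryos and hold mostly connective tissue fibroblasts, with other embryonic cells in varying number. Macrophages are among these, and they express a set of surface receptors, lysosomal enzymes and lysozymes that fibroblasts lack. Fibroblasts also keep part of the transcription factor code of the body region they came from, and genes on the Y chromosome are transcribed only in cells from male embryos. UBF, the product of Ubtf (named Ubf in the study), is the nucleolar architectural factor of ribosomal RNA gene transcription.

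Of the 20 fibroblast markers listed, 20 exceeded each array's 40th percentile throughout both MEF cultures, with summed levels of 16.62 to 16.79 in fl/fl and 16.63 to 16.71 in wt/wt (log2 of the summed linear values). The 96 h pair stood apart. Across all genes its difference correlated with that at 0 h at r = -0.38, at 24 h at -0.04, at 48 h at -0.21 and at 72 h at 0.44, whereas the other pairs of times lay between 0.40 and 0.70 (genes are not independent). The fl/fl array at 96 h lay farthest from the other 4 arrays of its culture, with an SD over genes of 0.46 against 0.20 to 0.39 for the other 9 arrays. Without the 96 h pair, 971 genes were lasting higher and 495 lower. Without the 72 h pair they were 10 and 5, without the 48 h pair 32 and 26, without the 0 h pair 32 and 37, and without the 24 h pair 55 and 27.

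The promoter windows of 4 genes from the lasting differences described next are shown. Of the 5 lasting macrophage markers, only Cd53 and Ctss, whose windows held the letters marked below, were taken. The windows are those of Cd53, Ctss, AI506816, with the largest difference of all, and Eif2s3y on the Y chromosome. Each runs from 250 bases before to 50 bases after the annotated start (RefSeq, GRCm38.p6), 5′ to 3′ on the gene's strand, at chr3:106790100-106790399 (minus strand), chr3:95526536-95526835 (plus), chr5:23712618-23712917 (minus) and chrY:1010345-1010644 (plus). Capitals mark ACTTCCTC, the reverse complement of GAGGAAGT, which is the kind of sequence bound by the myeloid factor PU.1. Both strands were searched.
Cd53: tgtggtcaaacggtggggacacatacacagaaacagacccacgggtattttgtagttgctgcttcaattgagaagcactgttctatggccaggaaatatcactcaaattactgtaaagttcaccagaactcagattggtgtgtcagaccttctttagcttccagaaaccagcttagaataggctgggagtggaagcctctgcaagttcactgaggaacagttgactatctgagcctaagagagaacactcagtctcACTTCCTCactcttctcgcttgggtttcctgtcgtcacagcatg
Ctss: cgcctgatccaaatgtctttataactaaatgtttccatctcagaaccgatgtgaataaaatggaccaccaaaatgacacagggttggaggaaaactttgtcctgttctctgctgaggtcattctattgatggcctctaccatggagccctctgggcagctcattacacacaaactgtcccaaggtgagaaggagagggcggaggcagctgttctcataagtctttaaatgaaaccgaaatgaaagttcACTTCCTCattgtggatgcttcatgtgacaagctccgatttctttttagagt
AI506816: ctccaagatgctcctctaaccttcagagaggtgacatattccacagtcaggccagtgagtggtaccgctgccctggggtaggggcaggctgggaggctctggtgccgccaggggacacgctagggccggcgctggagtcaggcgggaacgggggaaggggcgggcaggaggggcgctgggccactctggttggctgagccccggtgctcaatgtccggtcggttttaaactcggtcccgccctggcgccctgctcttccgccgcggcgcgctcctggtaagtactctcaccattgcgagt
Eif2s3y: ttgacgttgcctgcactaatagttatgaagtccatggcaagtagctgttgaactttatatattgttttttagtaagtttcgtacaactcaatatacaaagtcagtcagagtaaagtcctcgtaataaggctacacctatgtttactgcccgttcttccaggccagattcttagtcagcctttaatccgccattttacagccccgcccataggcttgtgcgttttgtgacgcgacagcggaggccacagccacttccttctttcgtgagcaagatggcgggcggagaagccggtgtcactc
The letters occurred in 2 of the 5 lasting macrophage marker genes (Cd53 and Ctss) and in 3.2% of all 32851 windows of this length. The former is a count of genes and the latter a share of windows. The windows of Lyz1, Ptprc and Mpeg1 did not hold these exact letters. Near matches were not counted: the windows of Lyz1, Ptprc and Eif2s3y hold the letters with only the last base changed. The CG dinucleotide occurred 21 times in the AI506816 window, 14 times in that of Eif2s3y, 5 times in that of Ctss and 4 times in that of Cd53, against a median of 7 over all windows.

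The largest lasting difference belonged to AI506816, a long noncoding RNA, which was near the background of the array in fl/fl MEFs. In fl/fl MEFs the arrays from 0 to 96 h gave log2 levels of 6.14, 6.56, 6.73, 5.82 and 5.94, and those of wt/wt MEFs gave 11.44, 11.49, 11.10, 10.67 and 10.96, in the same order of times as all series of 5 values below. The fl/fl values lay around the 40th percentile of the MEF arrays (6.16 to 6.25) and the groups were far apart. The mean difference was -4.89 ± 0.13 (SE over 5 times), 29.7-fold lower in fl/fl, with an adjusted p of 1.9e-05. In fl/fl iMEFs the same RNA stood at 11.08, 11.34, 11.03, 10.55 and 9.55, close to wt/wt iMEFs at 11.54, 11.20, 11.57, 11.26 and 10.34. The iMEF difference of -0.47 did not pass (adjusted p = 0.12), and the MEF and iMEF differences differed by -4.42 (adjusted p = 2.0e-07). Of the 4 cultures, the fl/fl MEFs were the one with a low level.

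Serinc2, a member of the serine incorporator family of membrane proteins, was among the steadiest of the large increases. Its level was 11.25, 10.99, 10.76, 10.29 and 10.09 in fl/fl MEFs and 8.86, 8.50, 8.35, 8.19 and 7.94 in wt/wt MEFs, so that both cultures declined in parallel. The mean difference was 2.31 ± 0.09, or 4.95-fold (adjusted p = 0.00011). In iMEFs the order was turned, at 8.68 to 9.10 in fl/fl against 9.69 to 10.09 in wt/wt, a difference of -0.93 (adjusted p = 0.0024). AI506816 and Serinc2 were the genes that stayed called under every one of the 16 alternatives, and the only 2 called when the empirical Bayes step used its trend and robust settings.

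Bckdhb, a subunit of the enzyme complex that breaks down branched-chain amino acids, differed by almost the same amount at each time. It stood at 10.17, 9.94, 9.77, 9.89 and 9.94 in fl/fl MEFs and at 8.52, 8.25, 8.08, 8.27 and 8.40 in wt/wt MEFs. The difference was 1.64 ± 0.07, with an SD over times of 0.061 (adjusted p = 0.00016). Both iMEF cultures were near the wt/wt MEF level, between 7.94 and 8.68. Abhd1, of the alpha/beta hydrolase family, is listed as a transcribed pseudogene in the annotation used. It was at 8.96 to 9.51 in fl/fl and 7.50 to 8.02 in wt/wt MEFs (1.52 ± 0.08, SD over times 0.121, adjusted p = 0.00048). Both iMEF cultures were near its fl/fl MEF level, between 8.97 and 9.74.

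**Figure D1:**
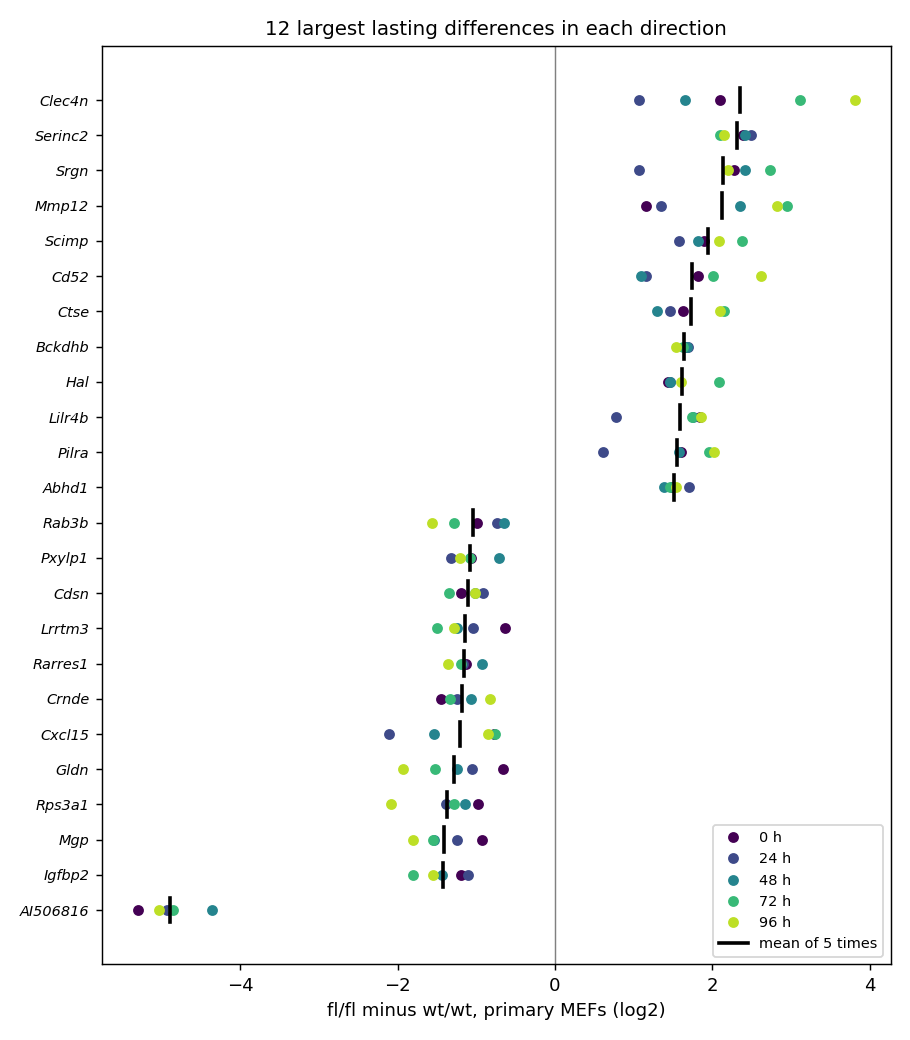
The fl/fl minus wt/wt difference in primary MEFs (log2, horizontal axis) at each of 5 times (coloured points) with their mean (bar), for the 12 largest lasting differences in each direction. AI506816 lies alone near -4.89, the points of Bckdhb lie within 1.54 to 1.69, and those of Clec4n spread from 1.07 to 3.81.

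**Figure D2:**
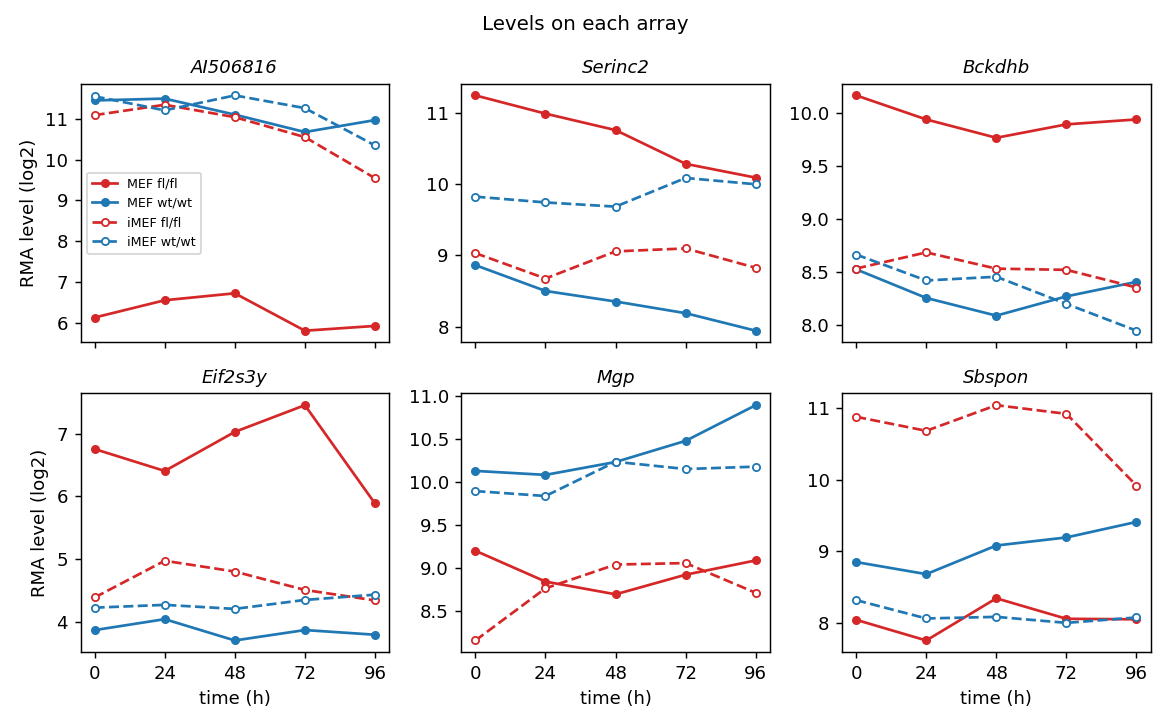
RMA level (log2, vertical axis, a separate scale in each panel) of 6 genes on each array against time in hours, in MEFs (filled, solid) and iMEFs (open, dashed), fl/fl in red and wt/wt in blue. AI506816 is low only in fl/fl MEFs, Serinc2 and Sbspon change order between MEFs and iMEFs, and Mgp is lower in fl/fl in both.

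Over 2-fold at every time was the difference of 16 genes higher (0.109%) and 3 genes lower (0.0205%) in fl/fl MEFs. The 3 lower ones were AI506816, Ifi202b and Igfbp2, of which Ifi202b was chosen for the text after its values were seen. Ifi202b, an interferon-inducible gene of the p200 family, stayed between 3.92 and 4.29 in fl/fl MEFs and rose from 5.35 at 0 h to 6.48, 7.35, 8.12 and 7.79 in wt/wt MEFs. Its difference thus widened from -1.43 at 0 h to -3.92 at 72 h (mean -2.89 ± 0.33, adjusted p = 0.010), and both iMEF cultures were between 4.36 and 5.08. Ifi202b passed the filter on low values through the wt/wt arrays alone (4, against 0 of fl/fl), so its call is a description of these cultures. Igfbp2, which binds insulin-like growth factors, was at 8.82 to 9.49 in fl/fl and 10.16 to 10.88 in wt/wt MEFs (-1.42 ± 0.11, adjusted p = 0.0048). Its iMEF difference was -0.58 (adjusted p = 0.078).

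The Y-linked genes were the other group with a large difference. Of 9 listed, 8 had a probe set, 4 passed the filter on low values and 3 of these were lasting higher in fl/fl MEFs. Eif2s3y, a translation initiation factor subunit, was at 6.76, 6.41, 7.03, 7.46 and 5.89 in fl/fl and at 3.86, 4.04, 3.70, 3.86 and 3.79 in wt/wt MEFs (2.86 ± 0.22, adjusted p = 0.0046). Uty, a histone demethylase homologue, was at 6.48, 6.55, 7.22, 7.51 and 5.89 in fl/fl and at 4.32, 4.41, 4.54, 4.17 and 4.40 in wt/wt MEFs (2.36 ± 0.24, adjusted p = 0.0077). The cultures did not overlap for either gene, and the lowest fl/fl array was that of 96 h in both.

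Kdm5d, a histone H3 lysine demethylase, was at 5.69 to 6.38 in fl/fl and 4.96 to 5.21 in wt/wt MEFs (1.06 ± 0.12, adjusted p = 0.011). Sry, the testis-determining gene, was at 7.46 to 7.75 in fl/fl and 7.38 to 7.77 in wt/wt MEFs (0.06 ± 0.09, adjusted p = 0.92). Usp9y, Uba1y, Zfy1 and Zfy2 were below the filter in both. Eif2s3y, Uty and Kdm5d passed the filter through the fl/fl MEF arrays alone (4, 4 and 3 arrays, and 0 in the other 3 cultures), so they had to differ, and their count is a description of these cultures.

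Xist, the RNA that coats the inactive X chromosome, was at 9.86, 9.64, 10.11, 10.54 and 9.06 in fl/fl and at 9.61, 9.78, 10.07, 10.88 and 10.35 in wt/wt MEFs. It was thus measured well above the filter in both cultures, and its difference changed sign over time (-0.30 ± 0.21, adjusted p = 0.76). Of the 6 X-linked homologues of Y genes that were measured, none was lasting (1 at an unadjusted p of 0.05, against 10.9% of all genes). In iMEFs Eif2s3y was at 4.34 to 4.97 in fl/fl and 4.20 to 4.43 in wt/wt cells, and the iMEF differences were 0.31 for Eif2s3y, 0.35 for Uty and 0.22 for Kdm5d.

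Macrophage markers were higher in fl/fl MEFs. Of 24 listed, 22 were kept, 13 had a positive difference at all 5 times, 0 a negative one, and 5 were lasting higher (Mpeg1, Cd53, Ctss, Ptprc and Lyz1), against 5.85% and 0.821% of all genes. The median difference over the list was 0.63, and 21 of 22 means were positive. The median was 0.53, 0.24 and 0.20 at 0, 24 and 48 h, and 1.29 at 96 h, so that it was positive at 0 h and larger at the end. The summed level of the list was 14.34 to 15.01 in fl/fl, 13.50 to 14.24 in wt/wt, 10.93 to 11.56 in fl/fl iMEF and 11.22 to 11.67 in wt/wt iMEF arrays (log2). Without the 96 h pair the median was 0.49 and 10 markers were lasting higher, against 6.64% of all genes, and without the 72 h pair it was 0.59 and none was (10 of all genes). In these bulk samples a larger number of cells of a type and more RNA per cell cannot be told apart.

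Mpeg1, which encodes the pore-forming protein perforin-2, was at 9.21, 8.97, 9.37, 10.21 and 9.50 in fl/fl MEFs and at 7.79, 8.08, 8.38, 8.33 and 8.19 in wt/wt MEFs (1.30 ± 0.15, adjusted p = 0.010). Cd53, a leukocyte tetraspanin, was at 9.66, 9.47, 10.24, 10.88 and 10.26 in fl/fl and at 8.07, 8.69, 9.15, 9.17 and 9.01 in wt/wt MEFs (1.28 ± 0.14, adjusted p = 0.0096). The lysosomal protease gene Ctss was at 8.50 to 9.82 and 7.93 to 8.43 (1.12 ± 0.16, adjusted p = 0.026). For each of these genes the lowest fl/fl array was above the highest wt/wt array, and both iMEF cultures were below both MEF cultures.

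Ptprc, the leukocyte phosphatase CD45, was at 6.80 to 7.85 in fl/fl and 5.97 to 6.57 in wt/wt MEFs (0.88 ± 0.14, adjusted p = 0.031). The lysozyme gene Lyz1 was at 8.44 to 8.96 and 7.72 to 8.12 (0.65 ± 0.09, adjusted p = 0.021). Its neighbour Lyz2, which macrophages express strongly, was at 12.13 to 12.59 in fl/fl and 11.61 to 11.94 in wt/wt MEFs, with a positive difference at all times that did not pass (0.58, adjusted p = 0.079). Csf1r, the receptor of the macrophage growth factor, had a difference of 0.98 (adjusted p = 0.068), and Itgam, the integrin subunit of complement receptor 3, one of 0.76 (adjusted p = 0.062). The complement gene C1qa (0.03, adjusted p = 0.99) and the mannose receptor gene Mrc1 (-0.26, adjusted p = 0.53) had small or negative means.

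**Figure D3:**
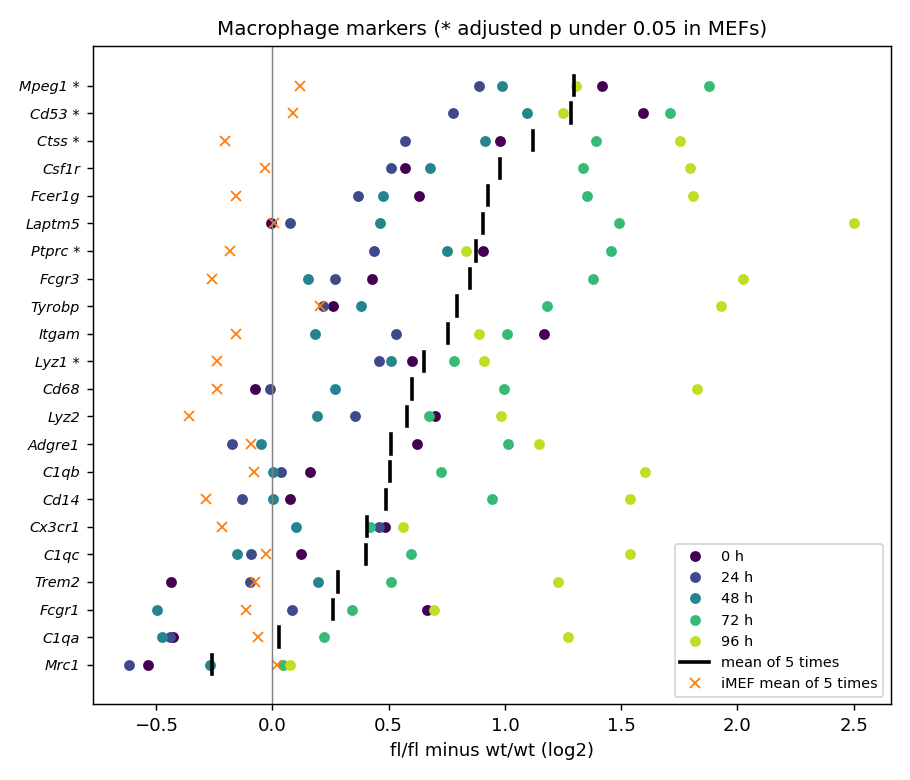
The fl/fl minus wt/wt difference (log2, horizontal axis) of 22 macrophage markers in primary MEFs at each time (points) with their mean (bar), and the iMEF mean (cross). Of the 22 MEF means, 21 are above 0, the 72 and 96 h points lie to the right for many genes, and the iMEF means lie between -0.36 and 0.21.

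Among the 12 largest lasting increases, Clec4n (the C-type lectin receptor dectin-2), Srgn (serglycin, a proteoglycan of secretory granules), Mmp12 (macrophage elastase), Scimp (a transmembrane adaptor of antigen-presenting cells), Cd52, Lilr4b and Pilra (an inhibitory receptor of myeloid cells) are genes known from blood cells and lie outside the marker list. Clec4n was at 7.98, 7.92, 8.48, 9.54 and 9.95 in fl/fl and at 5.88, 6.85, 6.83, 6.43 and 6.14 in wt/wt MEFs (2.35 ± 0.37, adjusted p = 0.031). Scimp was at 7.64 to 8.32 and 5.81 to 6.12 (1.95 ± 0.12, adjusted p = 0.0015). Scimp passed the filter on low values through the fl/fl arrays alone (5, against 0 of wt/wt), so its call is a description of these cultures. Mmp12 was at 7.88, 8.05, 9.70, 10.63 and 10.07 in fl/fl and at 6.72, 6.70, 7.34, 7.68 and 7.25 in wt/wt MEFs (2.13 ± 0.28, adjusted p = 0.017). The differences of all 3 genes were largest at 72 and 96 h, those of Scimp running from 1.57 to 2.38.

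Srgn differed by 2.14 ± 0.22 (adjusted p = 0.0079), Cd52 by 1.74 ± 0.22 (adjusted p = 0.015), Lilr4b by 1.59 ± 0.17 (adjusted p = 0.0080) and Pilra by 1.55 ± 0.20 (adjusted p = 0.015). The protease gene Ctse, at 8.68 to 9.36 in fl/fl and 6.87 to 7.74 in wt/wt MEFs, differed by 1.73 ± 0.14 (adjusted p = 0.0049), and Hal, which degrades histidine, by 1.61 ± 0.11 (adjusted p = 0.0030). Each of these 9 genes had an iMEF difference between -0.27 and 0.35 that did not pass, and their MEF and iMEF differences differed (adjusted p at most 0.013). The macrophage list moved with them, and its part in these differences was not tested.

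Of the 16 genes over 2-fold higher at every time, Clec4e, Acod1, Stap1 and Gbp2b were chosen after their values were seen. Gbp2b, an interferon-induced GTPase, was at 7.21 to 9.24 in fl/fl and 5.31 to 6.07 in wt/wt MEFs (2.19 ± 0.27, adjusted p = 0.015). Clec4e, the C-type lectin Mincle, was at 5.54 to 6.50 and 4.45 to 5.10 (1.32 ± 0.13, adjusted p = 0.0076). Among MEF arrays, Gbp2b and Clec4e passed the filter through fl/fl alone (5 and 2 arrays, against 0 of wt/wt). Their calls are therefore a description of these cultures. Acod1, which makes itaconate in activated macrophages, differed by 1.41 ± 0.15 (adjusted p = 0.0081), and Stap1, a signalling adaptor, by 1.52 ± 0.15 (adjusted p = 0.0069). All 4 had iMEF differences between -0.17 and 0.13.

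Other immune lists held from 1 to 3 lasting genes each, while 0.821% of all genes were lasting higher and 0.800% lower. Of 33 interferon-stimulated genes, 0 were lasting higher and 1 lower, the antiviral tetherin gene Bst2, while 8 were positive at all times (5.85% of all genes were). The list median was 0.29, but it ran from 1.08 at 0 h to -0.19 at 96 h and was 0.088 without the 0 h pair. Bst2 was at 9.66, 9.38, 10.56, 10.61 and 10.46 in fl/fl and at 10.37, 10.29, 11.70, 11.66 and 11.60 in wt/wt MEFs. The ranges overlapped because both cultures rose from 24 to 48 h, but each fl/fl array was below the wt/wt array of its own time (-0.99 ± 0.09, adjusted p = 0.0056). The same difference held in iMEFs, at -1.03 (adjusted p = 0.031).

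Among 14 genes of MHC class I and its processing, H2-Q4 was lasting higher (1.13 ± 0.20, adjusted p = 0.049), with an opposite iMEF difference of -0.63 (adjusted p = 0.026). Its MEF call was lost with median centring (adjusted p = 0.0525) and quantile scaling (adjusted p = 0.075) of the mRNA probe sets and was kept under 6 of 16 alternatives. Among 25 chemokines and cytokines, Cxcl9, a T cell attractant, was higher (1.32 ± 0.21, adjusted p = 0.033) and Cxcl14 (-0.47 ± 0.07, adjusted p = 0.028) and Cxcl15 (-1.21 ± 0.21, adjusted p = 0.041) were lower. The complement receptor gene C5ar1, at 9.02 to 9.52 in fl/fl and 7.47 to 8.39 in wt/wt MEFs, was the one lasting gene of 10 complement genes (1.22 ± 0.20, adjusted p = 0.035). Of 28 matrix proteases and inhibitors, Mmp12 and Mmp9 were lasting higher, Mmp9 by 0.74 ± 0.09 (adjusted p = 0.015). The counts of these lists stand against 0.821% of all genes lasting higher and 0.800% lower.

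The factors of mesenchymal patterning that passed the test were all lower in fl/fl MEFs. Of 26 craniofacial and mesenchymal factors, 0 were positive and 8 negative at all times, and 4 were lasting lower (Foxc2, Msx1, Prrx2 and Dlx2), against 5.88% and 0.800% of all genes. The list median was -0.04, so most members differed little. Leaving out 1 time pair left 0 (without 72 h) to 7 (without 96 h, with 1 higher) of them lasting lower. Foxc2, a forkhead factor of mesenchyme and lymphatic vessels, was at 8.01, 8.18, 8.14, 7.51 and 7.55 in fl/fl and at 9.10, 8.83, 8.61, 8.60 and 9.02 in wt/wt MEFs (-0.95 ± 0.15, adjusted p = 0.029). Msx1, a homeobox factor of craniofacial and limb mesenchyme, was at 7.86 to 8.77 and 8.89 to 9.47 (-0.85 ± 0.08, adjusted p = 0.0062).

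The homeobox genes Prrx2 (-0.58 ± 0.07, adjusted p = 0.014) and Dlx2 (-0.54 ± 0.07, adjusted p = 0.015) did not overlap between cultures either. In iMEFs Foxc2 (-0.76, adjusted p = 0.0032) and Dlx2 (-0.83, adjusted p = 0.0025) were lower in fl/fl as well, Msx1 was higher (0.71, adjusted p = 0.015), and Prrx2 was at -0.04 (adjusted p = 0.86). Of 41 limb and trunk patterning factors, Lhx2 alone was lasting lower (-0.43 ± 0.08, adjusted p = 0.048), against 0.800% of all genes.

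The BMP and TGF-beta genes that passed were lower as well. Of 33 measured, 0 were positive and 10 negative at all times and 3 were lasting lower, against 5.88% and 0.800% of all genes, and the median was -0.17. Without the 96 h pair 7 were lasting lower, and without any other single pair 0 were. The ligand gene Bmp4 was at 11.19, 11.16, 11.28, 10.99 and 11.07 in fl/fl and at 11.67, 11.90, 11.81, 12.03 and 12.06 in wt/wt MEFs (-0.76 ± 0.11, adjusted p = 0.023). The ligand gene Tgfb2 differed by -0.57 ± 0.10 (adjusted p = 0.039), and Id1, a target of BMP signalling, by -0.40 ± 0.07 (adjusted p = 0.038). None of the 3 passed in iMEFs, where Bmp4 had a difference of 0.48 (adjusted p = 0.084).

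Of 31 Wnt pathway genes, the ligand gene Wnt4 (-0.51 ± 0.07, adjusted p = 0.022) and the receptor gene Fzd1 (-0.46 ± 0.08, adjusted p = 0.036) were lasting lower, against 0.800% of all genes, and 0 were higher. Another probe set of Wnt4, at a similar level, gave a smaller difference of -0.28. Of 40 axon guidance and adhesion genes, 4 were lasting lower and 1 higher, against 0.800% and 0.821% of all genes. Leaving out 1 time pair left 0 (without 24 or 72 h) to 8 (without 96 h) of them lasting lower. Sema3d, a secreted semaphorin, was at 6.12 to 6.83 in fl/fl and 7.03 to 8.34 in wt/wt MEFs (-1.20 ± 0.17, adjusted p = 0.024). Sema3e (-0.72), the netrin Ntn4 (-0.59) and the cadherin Cdh13 (-0.50) were the other lower members, and the protocadherin Pcdh18 was higher (0.55 ± 0.09, adjusted p = 0.041).

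The cell cycle inhibitor genes Cdkn2a and Cdkn2b, which restrain proliferation in ageing MEF cultures, were lasting lower, 2 of 19 senescence and p53 target genes, against 0.800% of all genes. Neither this list nor the Wnt list kept a lasting gene without the 0, 24, 48 or 72 h pair, while without the 96 h pair this list held 3 lower and 2 higher and the Wnt list 4 lower and 1 higher. Cdkn2a was at 7.69, 7.73, 8.15, 7.92 and 8.17 in fl/fl and at 8.44, 8.22, 8.47, 8.68 and 8.93 in wt/wt MEFs (-0.61 ± 0.09, adjusted p = 0.028). Cdkn2b differed by -0.55 ± 0.10 in MEFs (adjusted p = 0.044) and by -0.69 in iMEFs (adjusted p = 0.012). Of 29 proliferation genes none was lasting in limma (7 at an unadjusted p of 0.05, against 10.9% of all genes). Their median difference was 0.12, 0.16, -0.14, -0.72 and -0.85 from 0 to 96 h.

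Of 13 epithelial and mesothelial markers, 2 were lasting lower, both known from mesothelium, against 0.800% of all genes. In all 3 had a negative and 1 a positive difference at every time, the latter being Sfn, an epithelial 14-3-3 protein gene (0.71, adjusted p = 0.067). The uroplakin gene Upk1b was negative at every time without passing the test (-0.48, adjusted p = 0.13). Leaving out 1 time pair left 0 (without 72 h) to 4 (without 96 h, then with 1 higher) of the markers lasting lower. Upk3b, a uroplakin, was at 8.27, 8.05, 8.40, 8.48 and 9.12 in fl/fl and at 9.54, 9.31, 9.68, 9.60 and 9.42 in wt/wt MEFs (-1.05 ± 0.15, adjusted p = 0.026). Msln, mesothelin, was at 8.14 to 9.07 and 8.92 to 10.07 (-0.87 ± 0.08, adjusted p = 0.0068). The difference of Upk3b was smallest at 96 h, at -0.30. The list's summed level was 11.42 to 11.87 in fl/fl and 11.83 to 12.06 in wt/wt MEFs (log2), and its part in these differences was not tested. Krt5, Epcam, Muc16, Grhl2 and Esrp1 were below the filter.

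Single members of further lists were the scavenger receptor gene Cd36 (1.50 ± 0.19, adjusted p = 0.015), the growth factor gene Vegfa (0.42 ± 0.08, adjusted p = 0.047), the imprinted preadipocyte gene Dlk1 (-0.69 ± 0.07, adjusted p = 0.0079) and the intermediate filament gene Des (-0.54 ± 0.09, adjusted p = 0.033). Of the 34 lists, 15 held no lasting gene by limma, with 40 of their 244 entries (16.4%) at an unadjusted p of 0.05, against 10.9% of all genes. Among these were 36 Hox genes (9 at an unadjusted p of 0.05), 28 collagens (2), 20 fibroblast markers (2), 13 endothelial markers (3), 18 genes of UBF partners and RNA polymerase I (1) and 7 strain-variable genes (1).

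The largest decreases beyond those named above were Mgp, Rps3a1, Gldn, Crnde, Rarres1, Lrrtm3, Cdsn, Pxylp1 and Rab3b. Mgp, which restrains mineralization of cartilage and vessels, was at 9.20, 8.84, 8.69, 8.92 and 9.09 in fl/fl and at 10.13, 10.08, 10.23, 10.48 and 10.89 in wt/wt MEFs (-1.41 ± 0.13, adjusted p = 0.0060). Rarres1, a retinoic acid responsive gene, was at 6.82 to 7.20 and 7.95 to 8.48 (-1.15 ± 0.08, adjusted p = 0.0032). Crnde, a long noncoding RNA, was at 6.26 to 6.71 and 7.43 to 7.82 (-1.18 ± 0.10, adjusted p = 0.0054). These 3 were the ones of this group that were also lasting lower in iMEFs.

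Rps3a1, a ribosomal protein gene, differed by -1.38 ± 0.16 (adjusted p = 0.010), and its probes may read processed copies. Gldn, which acts at nodes of Ranvier, differed by -1.29 ± 0.17 (adjusted p = 0.017), Lrrtm3, a synaptic adhesion protein gene, by -1.14 ± 0.13 (adjusted p = 0.0096), Cdsn, corneodesmosin, by -1.10 ± 0.09 (adjusted p = 0.0048), Pxylp1, a xylose phosphatase, by -1.07 ± 0.10 (adjusted p = 0.0062) and Rab3b, a vesicle GTPase, by -1.05 ± 0.14 (adjusted p = 0.019). In the wt/wt arrays these 5 lay between 7.42 and 9.55. Probes of families with near-identical members, such as Clec4n, Lilr4b, Gbp2b, Trim30d, H2-Q4 and Ifi202b, may share signal as well.

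The iMEF cultures carry the same genotypes and were tested on the same 14616 genes. Of these 211 were lasting higher (1.44%) and 355 lower (2.43%) in fl/fl iMEFs. Of the 120 genes lasting higher in MEFs, 5 were lasting higher in iMEFs (4.17%) and 6 lower (5%), and of the 117 lasting lower in MEFs, 21 were lasting lower (17.9%) and 10 higher (8.55%). The 26 genes with a shared direction made up 11% of the MEF and 4.59% of the iMEF lasting genes. The difference between MEFs and iMEFs itself passed for 145 of the 237 genes, 89 of the higher and 56 of the lower ones, against 4.15% of all genes. The 237 genes were chosen by the MEF difference that this test uses again. A share above that of all genes therefore follows from the choice. Across the 237 genes the MEF and iMEF means correlated at r = 0.15 (genes are not independent).

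The genes with the largest shared difference were all lower in fl/fl cells. Beside Mgp (-1.31 in iMEFs), Rarres1 (-1.48) and Bst2 they were Mgll, Ctsh, Thbd, S100a7a and Cers4. Mgll, which breaks down the endocannabinoid 2-arachidonoylglycerol, differed by -0.84 ± 0.08 in MEFs (adjusted p = 0.0076) and -1.09 in iMEFs (adjusted p = 0.0011). The lysosomal protease gene Ctsh differed by -0.80 ± 0.09 (adjusted p = 0.010) and -1.51 (adjusted p = 0.0062), and Thbd, thrombomodulin, by -0.82 ± 0.07 (adjusted p = 0.0049) and -1.41 (adjusted p = 0.00019). S100a7a differed by -0.94 and -0.82, and the ceramide synthase gene Cers4 by -0.78 and -0.84. These 8 genes were chosen as lasting in both cell types, so each fl/fl array was below the wt/wt array of its time by that choice.

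The genes with the largest opposite differences were Serinc2, Sbspon, Trim30d, Galnt13, Penk, Msx1, H2-Q4 and 2410018L13Rik. Sbspon, a secreted somatomedin B and thrombospondin domain protein, was at 8.04, 7.76, 8.35, 8.06 and 8.05 in fl/fl and at 8.85, 8.68, 9.08, 9.19 and 9.41 in wt/wt MEFs (-0.99 ± 0.11, adjusted p = 0.0086). In iMEFs it was at 10.88, 10.68, 11.04, 10.92 and 9.92 in fl/fl and at no more than 8.32 in wt/wt cells, a difference of 2.58 (adjusted p = 7.6e-05). The fl/fl iMEFs were thus the culture apart from the other 3 for this gene.

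Trim30d, of an interferon-responsive TRIM family, differed by 1.45 ± 0.25 in MEFs (adjusted p = 0.041) and -1.46 in iMEFs (adjusted p = 0.0032). Penk, the enkephalin precursor gene, differed by -0.73 ± 0.13 (adjusted p = 0.045) and 0.83 (adjusted p = 0.016), and Galnt13, a glycosyltransferase gene, by -0.73 ± 0.12 (adjusted p = 0.038) and 0.92 (adjusted p = 0.0014). Among MEF arrays, Galnt13 passed the filter through wt/wt alone (3, against 0 of fl/fl), so its MEF call is a description of these cultures. The uncharacterised 2410018L13Rik differed by 0.88 ± 0.08 (adjusted p = 0.0053) and -0.63 (adjusted p = 0.036).

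**Figure D4:**
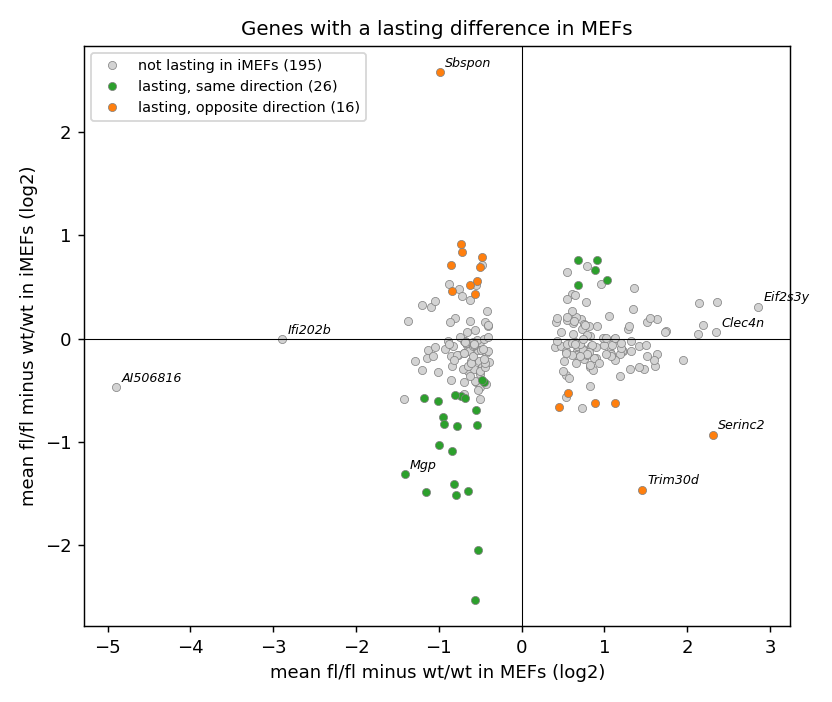
Mean fl/fl minus wt/wt difference (log2) in MEFs (horizontal axis) and in iMEFs (vertical axis) of the 237 genes with a lasting difference in MEFs, coloured by whether they were also lasting in iMEFs. Of the points, 195 are grey (not lasting in iMEFs), 26 green (same direction) and 16 orange (opposite), and AI506816 and Eif2s3y lie near 0 on the iMEF axis.

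Calls made from the later pairs alone do not use the 0 h arrays, but these arrays come from the same cultures. From the 24, 48, 72 and 96 h pairs alone, 69 genes were called, 32 higher and 37 lower. Of these, 68 had the same sign at 0 h. No share of all genes with the same sign was taken beside it. Of the 69 genes, 68 were also lasting differences, whose rule uses the sign at 0 h. The 0 h values therefore describe these cultures and are no separate check of the calls. The median size was 1.04 at 24 to 96 h and 0.92 at 0 h in the called direction, and 60 genes had at 0 h at least 50% of the later mean. The exception, chosen after its values were seen, was Dis3l, an exoribonuclease gene, with a difference of -0.05 at 0 h and of 0.66 to 0.67 at each later time. In iMEFs the Dis3l difference was already 0.53 at 0 h (mean 0.67, adjusted p = 0.011). Over all genes, none passed limma's test of a change of the difference from 0 and 24 h to the later times (864 of 14616 at an unadjusted p of 0.05).

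Ubtf itself had no lasting difference (0.14 ± 0.10, adjusted p = 0.77). Its difference ran from -0.11 at 0 h to 0.43 at 96 h, as wt/wt MEFs fell from 10.75 to 10.22 and fl/fl MEFs stayed between 10.53 and 10.65. The change to the later times did not pass limma's test (0.36, adjusted p = 0.70). The deletion removes only the loxP-flanked exons, and whether the probe set reads them was not tested, so these values do not measure excision. Of the genes that stand within 50 annotated genes of Ubtf on either side, 50 were measured in MEFs, 2 were higher and 1 lower at all times, and none was lasting by limma (2 at an unadjusted p of 0.05). Over all genes, 5.85% were higher and 5.88% lower at all times, and 10.9% were at an unadjusted p of 0.05. Only 0.821% were lasting higher and 0.800% lower, so none lasting among 50 genes says little. The differences of the 50 neighbours ran from -0.33 to 0.56 with a median of -0.01. In iMEFs 1 of them, the formin gene Fmnl1, was lasting higher (0.999, adjusted p = 0.00064), against 1.44% of all genes, and in MEFs its difference was 0.56 (adjusted p = 0.19). By chromosome, the share of lasting genes ran from 0.503% on chromosome 15 to 2.81% on chromosome 8 among the autosomes, with 0.769% on chromosome 11, where Ubtf lies, and 1.62% on X.

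Lasting genes that lie within 3 annotated genes of each other formed 13 pairs, of which 10 had the same direction. These were the lectin genes Clec4n with Clec4d and Clec4d with Clec4e, Lilr4b with Lilrb4a, Pilra with Pilrb1, Lxn with Rarres1, Cdkn2a with Cdkn2b, Myo1g with Snhg15, Lcp2 with Dock2, and the Y-linked Kdm5d with Eif2s3y and Eif2s3y with Uty. No count of such pairs over all genes was made. Just inside the threshold stood Sorbs2 (-0.42, adjusted p = 0.0497), and just outside it Tcf19 (-0.44, adjusted p = 0.051).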

How the data were processed

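The deposited values are log2 expression levels that the authors made from Affymetrix whole-transcript arrays by RMA (Affymetrix Power Tools 1.14.4 per the labels), 35556 probe sets on 20 arrays. They were used without rescaling. Probe sets were named through the platform annotation given for the series, that of an earlier version of the Mouse Gene ST array than the study's methods name, so gene names rest on that annotation: 21789 had 1 gene symbol, 1621 several and 12146 were not listed, and 21698 identifiers matched RefSeq (GRCm38.p6). The probe set with the highest mean stood for each of 19938 genes, and 14616 genes above the 40th percentile on at least 2 of 10 MEF arrays were kept. The 5 fl/fl minus wt/wt differences, paired by time, were tested against 0 with limma 3.58.1 (R 4.3.3, 4 residual degrees of freedom, Benjamini-Hochberg over all kept genes at 0.05). The same fit was run in iMEFs, and MEF minus iMEF and late minus early differences were further terms. Replicate numbers here stand for time, which is the pairing. On simulated data for the MEF comparison on 14616 genes, 79 of 100 genes changed by 1 (log2) and 99 of 100 changed by 2 were recovered, with 11 false calls. The simulation drew independent noise for each gene and time, whereas the real differences were correlated over genes between times. Its recovery and false calls therefore need not hold for the real data.

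Named genes were the 12 largest lasting differences in each direction (over the 60th percentile on at least 3 of 5 arrays of the higher culture, without small RNAs and predicted genes), up to 5 lasting members of each list, the measured Y-linked genes and Xist, lasting neighbours of Ubtf, the 8 largest shared and 8 largest opposite differences in iMEFs, and Ubtf. Members and lists were chosen with earlier results of these data known. Arrays give no read depth, and their number limits the precision.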

Additional observations from a re-analysis of the deposited data

Results flagged for a closer look

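Of 83 named genes, 5 had 1 time whose difference stood apart from the other 4, where chance flags about 1 in 20. The difference was 2.08 at 72 h for Hal, 0.77 at 24 h for Lilr4b, -0.30 at 96 h for Upk3b, -0.36 at 48 h for Wnt4 and -0.051 at 0 h for Dis3l.

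The fl/fl minus wt/wt difference in MEFs and that in iMEFs differed by limma's test for 145 of the 237 lasting genes. Among the largest differences in each direction and the genes opposite in iMEFs, 29 of 31 were in this set. These genes were chosen by the size of the MEF difference or by opposite directions, so the count describes that choice. The values are given here as the MEF minus the iMEF difference (log2). This difference was 3.24 for Serinc2, 2.91 for Trim30d, 2.28 for Clec4n, 2.15 for Scimp, 2.08 for Mmp12, 1.88 for Hal, 1.80 for Lilr4b, 1.79 for Srgn, 1.75 for H2-Q4, 1.67 for Cd52, 1.66 for Ctse, 1.51 for 2410018L13Rik, 1.45 for Bckdhb, and 1.36 for both Abhd1 and Pilra. It was -4.42 for AI506816, -3.57 for Sbspon, -1.65 for Galnt13, -1.56 for both Msx1 and Penk, -1.55 for Rps3a1, -1.53 for Cxcl15, -1.41 for Rab3b, -1.40 for Cdsn, -1.07 for Gldn, -0.95 for Lrrtm3, -0.90 for Pxylp1, -0.83 for Igfbp2 and -0.61 for Crnde. Of the 31, Mgp and Rarres1 were not in the set.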

How the results depend on the processing

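The counts of lasting genes depended on the times used and on the estimate of error. Of 1321 values of 83 named genes under 16 alternatives, 942 stayed on their side of the threshold, 372 were no longer called and 7 became called. None changed direction where the gene was called, but lasting genes have 1 sign at all 5 times by rule. Dropping times, unpairing them, filters or another error estimate could therefore not reverse them, and this count is no check of direction. Without the replicate block, that is with times not paired, 95 genes were lasting higher and 76 lower (79 and 57 of them shared with the paired fit), and 13 and 6 genes were lasting in the same and the opposite direction in iMEFs. With empirical Bayes trend and robust settings 1 gene was lasting higher and 1 lower, and 0 and 1 were shared with and opposite to iMEFs. With an error shared with iMEFs 199 genes were higher (173 lower). From 0 and 24 h alone 1206 were higher and 494 lower, and from 48, 72 and 96 h alone 9 and 4. Leaving out each time pair in turn gave 10 to 971 genes higher and 5 to 495 lower. Without the 96 h pair all 120 and 117 genes stayed called, among 971 and 495. Quantile scaling on mRNA probe sets gave 5 genes over 2-fold lower at every time. The list medians of macrophage (0.60 to 0.63) and BMP and TGF-beta genes (-0.19 to -0.17) kept their sign under every scaling. Median centring, filters on low values and the mean of probe sets changed no count by more than 1.5 times. Of the named genes, C5ar1, Cxcl9, Des, Galnt13 and Penk lost their MEF call with quantile scaling, Vegfa with median centring, and Sorbs2 and H2-Q4 with both. The cause was not tested. Levels near the array's background, such as that of Eif2s3y in wt/wt MEFs, limit the size that a difference can show.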
